A study of Mus musculus with 12 samples.

Results

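The genes described here make, import, sense, store and export cholesterol. They were taken by name from the deposited expression table, and all 28 of the 28 names asked for were found among its 54532 genes. Of these, 19 are grouped as synthesis, namely enzymes of cholesterol synthesis and Ggps1, which acts on a branch leading away from sterols. The SREBP2 control system is encoded by 4 (Srebf2, Scap, Insig1 and Insig2), and 2 act in sterol uptake or transport inside the cell (Stard4 and Mylip). Another 2 encode efflux pumps (Abca1 and Abcg1) and 1 esterifies cholesterol for storage (Soat1). They were measured by RNA sequencing in MC38, a mouse colorectal cancer cell line grown in culture, with 3 libraries in each of 4 groups. The combination group received nintedanib at 3 µM together with X-rays at 8 Gy, the nintedanib group the drug alone, the radiation group the X-rays alone, and the control group neither treatment, and the labels give 24 hours for the treatments. Nintedanib is an inhibitor of several receptor tyrosine kinases. The labels give 3 independent repeats of the experiment. It used 1 cell line with no genetic change named and 1 dose and time of each treatment.

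Cholesterol is built from acetyl-CoA through mevalonate, isoprenoid units, squalene and lanosterol. When sterol in the endoplasmic reticulum is low, Scap carries the transcription factor SREBP2 to the Golgi, where it is cut, and the released part switches on the synthesis genes and Insig1. When sterol is high, the Insig proteins hold Scap back. The liver X receptors (LXR) act on the opposite side: sensing oxysterols, they switch on the efflux pumps and Mylip, a ubiquitin ligase that lowers the uptake of lipoprotein. Cultured tumour cells obtain cholesterol both by synthesis and from lipoproteins in serum.

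The values are FPKM, the fragments assigned to a gene scaled to the length of its model and to library depth, so levels can be compared between genes. Fragment totals recovered from the values were 16103528 to 18196615 per library, and an FPKM of 1 in a gene of 1 kilobase stood for 16.4 to 18.7 fragments. A gene was called higher or lower when the adjusted p of limma over all 13012 genes tested was under 0.05, and each log2 fold change is a difference of mean log2(FPKM + 1). Of 9 markers of colorectal epithelium, 6 stayed under 1 FPKM in every library, and Epcam and Krt20 were among them, Epcam at 0 in all 12. The other 3 were Cdh1, Krt19 and Lgals4, and the sum of all 9 was 12.8 to 15.1 FPKM in combination, 7.52 to 10.4 in nintedanib, 8.15 to 8.48 in radiation and 6.74 to 7.19 in control libraries. Against control, Cdh1 was called higher in combination and in radiation (log2 fold changes 0.76 and 0.29, limma adjusted p 1.84e-05 and 0.0286), and Krt19 in combination and in nintedanib (1.30 and 0.86, limma adjusted p 0.000498 and 0.00764), while Lgals4 was called in none of the 3 comparisons. Of 5 mesenchymal markers, Vim had 497.6 to 617.6 FPKM in single libraries. Sparc was called higher in nintedanib and in combination against control (log2 fold changes 0.32 and 0.31, limma adjusted p 0.0175 and 0.0199). The other 4 were called in neither comparison, where 19.7% and 22.3% of all genes were called higher. In combination against radiation Sparc was called higher and Zeb1 lower (0.33 and -0.36, limma adjusted p 0.0197 and 0.00953). Of 5 leukocyte markers 4 stayed under 1 FPKM, but their summed FPKM moved with the drug through Cd68, a lysosomal protein: it was 16.2 to 19.5 in combination, 13.6 to 14.4 in nintedanib, 4.30 to 5.43 in radiation and 3.55 to 4.60 in control libraries. The 4 fibroblast markers also summed higher with the drug, almost wholly through Col1a2, at 97.4 to 119.1 FPKM in combination, 110.9 to 132.7 in nintedanib, 63.0 to 73.2 in radiation and 62.8 to 64.7 in control libraries. Dcn was called higher in both drug-treated groups as well (log2 fold changes against control 0.73 in combination and 0.55 in nintedanib, limma adjusted p 0.00422 and 0.0235), and Col1a1 was not called, at -0.05 in each. Ptprc, the defining leukocyte marker, was at or below 0.0292 FPKM in every library and Lum was at 0, and what these shifts have to do with the sterol genes was not tested.

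The stretches of DNA just before these genes are shown first, because most of the genes below moved together and many are known targets of SREBP2. RefSeq promoter windows in GRCm38.p6, from 250 bases before to 50 after a start site, were at hand for 23 of the 28 genes, all on the strand the deposited table gives. The start site lay within 214 bases of the gene's start in that table for all but Tm7sf2, where it was 9347 bases away. SREBP2 binds sterol regulatory elements together with the factor NF-Y, which binds the CCAAT box. The letters TCACNCCAC, one written form of the sterol regulatory element, were found on either strand in 1 of the 23 windows (Hmgcs1) and in 1.24% of all 32851 windows. CCAAT was found in 19 of the 23 windows and in 37.4% of all windows. It was in 17 of the 19 windows whose gene rose with nintedanib and in 2 of the 4 whose gene was not called. The E-box CACGTG was in 5 of 23 and in 7.15% of all windows. By the same split, it was in 3 of the 19 windows and in 2 of the 4. A direct repeat of the kind LXR binds, written as 2 copies of GGTNA with 5 bases between them, was in 1 of 23 (Abca1) and in 0.718% of all windows. These motifs did not overlap each other in the 23 windows. The 6 windows below, 5′ to 3′ on the strand of the gene, are of 4 genes that rose strongly with nintedanib (Hmgcs1, Mvd, Idi1 and Insig1) and of 2 that were not called (Ggps1 and Abca1). Capitals mark CCAAT or its complement ATTGG, and in addition TCACCCCAC in Hmgcs1, CACGTG in Insig1 and Abca1, and the direct repeat in Abca1.
Hmgcs1 promoter, chr13:119690101-119690400, plus strand, GRCm38.p6: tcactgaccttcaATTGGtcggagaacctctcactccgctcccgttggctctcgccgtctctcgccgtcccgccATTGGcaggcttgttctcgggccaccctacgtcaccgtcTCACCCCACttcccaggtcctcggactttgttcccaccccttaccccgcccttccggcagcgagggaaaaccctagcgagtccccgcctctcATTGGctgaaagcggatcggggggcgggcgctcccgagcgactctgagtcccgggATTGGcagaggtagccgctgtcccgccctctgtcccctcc
Mvd promoter, chr8:122443373-122443672, minus strand, GRCm38.p6: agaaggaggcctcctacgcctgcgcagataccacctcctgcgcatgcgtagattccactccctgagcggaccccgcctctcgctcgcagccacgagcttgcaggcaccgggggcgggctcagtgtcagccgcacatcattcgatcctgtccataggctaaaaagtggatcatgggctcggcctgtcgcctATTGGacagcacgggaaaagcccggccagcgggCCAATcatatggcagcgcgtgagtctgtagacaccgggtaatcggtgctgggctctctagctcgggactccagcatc
Idi1 promoter, chr13:8885356-8885655, plus strand, GRCm38.p6: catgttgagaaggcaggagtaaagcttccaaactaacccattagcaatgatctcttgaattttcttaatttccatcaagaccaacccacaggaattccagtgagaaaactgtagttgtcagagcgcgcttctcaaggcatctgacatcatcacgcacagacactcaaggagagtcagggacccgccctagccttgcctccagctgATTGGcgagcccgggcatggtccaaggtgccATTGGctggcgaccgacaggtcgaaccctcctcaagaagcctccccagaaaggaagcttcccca
Insig1 promoter, chr5:28071162-28071461, plus strand, GRCm38.p6: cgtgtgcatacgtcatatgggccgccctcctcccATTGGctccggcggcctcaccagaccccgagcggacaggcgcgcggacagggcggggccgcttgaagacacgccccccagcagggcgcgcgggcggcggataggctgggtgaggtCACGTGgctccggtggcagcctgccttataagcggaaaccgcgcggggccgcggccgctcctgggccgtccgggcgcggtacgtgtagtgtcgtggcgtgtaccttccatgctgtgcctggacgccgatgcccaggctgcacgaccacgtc
Ggps1 promoter, chr13:14063439-14063738, minus strand, GRCm38.p6: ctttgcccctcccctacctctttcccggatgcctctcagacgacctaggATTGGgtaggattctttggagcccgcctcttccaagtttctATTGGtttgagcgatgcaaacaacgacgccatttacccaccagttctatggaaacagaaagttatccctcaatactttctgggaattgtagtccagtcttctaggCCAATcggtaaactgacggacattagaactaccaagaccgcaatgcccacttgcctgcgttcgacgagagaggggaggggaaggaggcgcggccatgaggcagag
Abca1 promoter, chr4:53159846-53160145, minus strand, GRCm38.p6: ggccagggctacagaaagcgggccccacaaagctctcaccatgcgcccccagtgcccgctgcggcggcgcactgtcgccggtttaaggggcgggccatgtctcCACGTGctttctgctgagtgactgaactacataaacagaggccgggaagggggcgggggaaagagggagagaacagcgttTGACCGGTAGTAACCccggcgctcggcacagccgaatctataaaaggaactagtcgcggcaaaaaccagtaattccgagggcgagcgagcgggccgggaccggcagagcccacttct
Hmgcs1 carries 4 CCAAT boxes and the sterol regulatory element, whose first base lies 137 bases before the start site. Ggps1 carries 3 CCAAT boxes, more than Mvd, Idi1 or Insig1. A match of letters is a description of the sequence and does not show that a factor binds there.

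Nintedanib raised most of the genes in the pathway. Of the 27 genes that passed the filter on low values, 23 were higher in nintedanib than in control libraries and 0 were lower, while 41.6% of all genes tested were called in either direction, 19.7% were called higher and 22% lower. In 19 of the 27 the rise was at least 1 on the log2 scale, a size reached by 1.64% of all genes as a called rise. The median log2 fold change was 1.28 over the 27 genes and -0.02 over all genes. Abcg1 was the gene too low to test. In bulk RNA a change in every cell and a change in some of the cells cannot be told apart. Of the 19 genes grouped as synthesis 18 rose, with a median of 1.49, and of the 8 tested genes with other roles 5 rose, with a median of 0.58. All 3 nintedanib libraries lay above all 3 control libraries for 23 of the 27 genes, a separation seen upward in 24.5% of all genes.

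**Figure D1:**
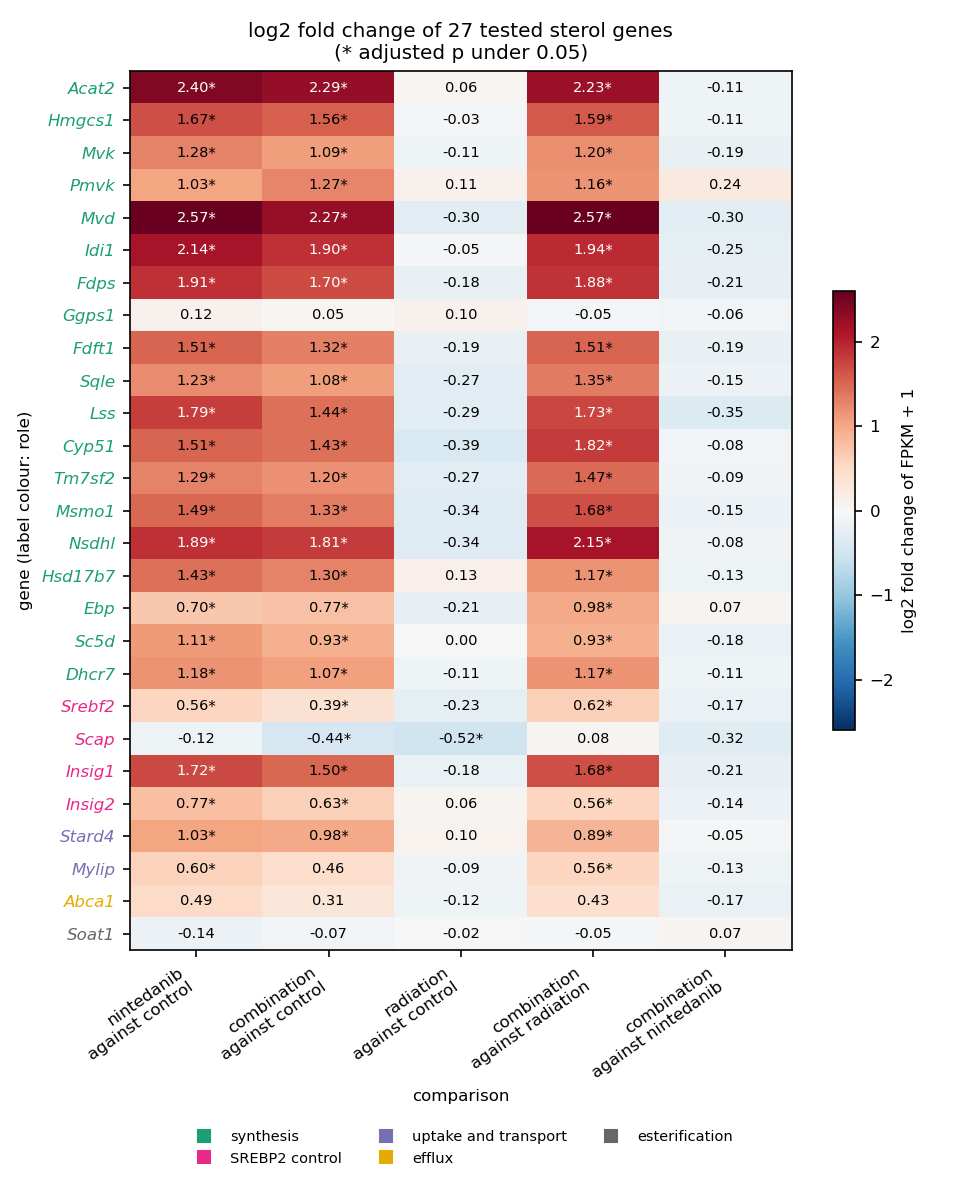
Log2 fold change of FPKM + 1 for the 27 tested genes (rows, in pathway order, label colour for role) in 5 comparisons (columns), with an asterisk where the limma adjusted p was under 0.05. The columns for nintedanib against control and combination against radiation hold 23 asterisks each, the radiation column holds 1 (Scap) and the column for combination against nintedanib holds none.

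The first steps, from acetyl-CoA to the activated isoprene unit, rose in all 5 of the enzymes measured here. Mvd, mevalonate diphosphate decarboxylase, which closes the mevalonate steps, had 146, 108 and 97.4 FPKM in nintedanib libraries, against 17.4, 21.7 and 16.98 FPKM in control libraries. That was a 6.26-fold ratio of the means and a log2 fold change of 2.57 ± 0.228 (SE, limma adjusted p = 7.55e-06), the largest among the 27 genes. Acat2, the cytosolic thiolase that joins acetyl-CoA units at the entry of the pathway, had 108, 87.96 and 118 FPKM in nintedanib libraries, against 18.5, 17.8 and 20.3 FPKM in control libraries. All nintedanib libraries lay far above all control libraries, and the log2 fold change was 2.40 ± 0.204 (SE, limma adjusted p = 6.11e-06). Hmgcs1, which makes HMG-CoA, was the highest of the 5 in FPKM, a per-length scale, in both groups, with 132, 106 and 128 FPKM in nintedanib libraries and 37.2, 36.1 and 38.99 FPKM in control libraries. Its log2 fold change was 1.67 ± 0.139 (SE, limma adjusted p = 5.23e-06). The kinases in between moved less. Mvk, mevalonate kinase, averaged 30.7 ± 5.73 FPKM in nintedanib and 11.9 ± 0.429 FPKM in control libraries (SD, n = 3 each), a log2 fold change of 1.28 ± 0.174 (SE, limma adjusted p = 0.000152). Pmvk, phosphomevalonate kinase, varied more between replicates, with 25.96, 18.8 and 15.4 FPKM in nintedanib libraries and 7.42, 11.7 and 8.65 FPKM in control libraries, and its groups still did not overlap (log2 fold change 1.03 ± 0.206 SE, limma adjusted p = 0.00211).

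At the isoprenoid steps the enzymes on the way to squalene rose and the branch enzyme was not called. Idi1, which interconverts the isoprene units, had 56.1, 43.3 and 74.4 FPKM in nintedanib libraries, against 12.99, 11.4 and 11.8 FPKM in control libraries, a log2 fold change of 2.14 ± 0.213 (SE, limma adjusted p = 1.69e-05). Fdps, which makes farnesyl diphosphate, the last compound shared by sterols and the other isoprenoids, had 12.8, 9.02 and 7.77 FPKM in nintedanib libraries, against 1.99, 1.69 and 1.86 FPKM in control libraries. The ratio of its means was 5.34-fold and its log2 fold change 1.91 ± 0.208 (SE, limma adjusted p = 3.34e-05), which the added 1 FPKM makes smaller at these low levels. The Fdps locus also holds 2 other genes on the same strand, so the level of Fdps is uncertain. The read-through gene Gm43738 shares 7512 bases and averaged 0.014 FPKM in nintedanib and 0.015 in control libraries. The small RNA gene Gm22935 shares 104 bases and averaged 17.96 and 4.72 FPKM in that order. Ggps1, which leads farnesyl diphosphate away from sterols towards geranylgeranyl groups for protein prenylation, was the only synthesis member not called. It had 7.27, 8.53 and 9.20 FPKM in nintedanib libraries and 7.59, 7.66 and 7.48 FPKM in control libraries. The nintedanib values straddle the control values, and the log2 fold change was 0.12 ± 0.0812 (SE, limma adjusted p = 0.277), with a 95% interval of -0.06 to 0.29. Without nintedanib replicate 1 it was 0.20 and just past the threshold (limma adjusted p 0.0492). The interval over all libraries leaves out a rise of the size of any of the other 18 synthesis genes, the smallest of which was 0.70 for Ebp.

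From squalene to lanosterol all 3 enzymes rose. Fdft1, squalene synthase, had 46.3, 39.3 and 50.99 FPKM in nintedanib libraries, against 14.9, 15.5 and 15.2 FPKM in control libraries (log2 fold change 1.51 ± 0.124 SE, limma adjusted p = 4.75e-06). Its locus shares 774 bases with Ctsb on the opposite strand, a gene that averaged 92.4 FPKM in nintedanib and 48.2 FPKM in control libraries, and whether the counting used strand is not given in the sources used here. Sqle, squalene epoxidase, an oxygen-dependent step that limits the later pathway, had 98.2, 84.05 and 97 FPKM in nintedanib libraries, against 38.8, 37.2 and 41.4 FPKM in control libraries. Its log2 fold change of 1.23 ± 0.115 (SE, limma adjusted p = 1.09e-05) was the smallest of the 3. Lss, which closes the ring system to lanosterol, had 27.6, 23.05 and 26.4 FPKM in nintedanib libraries, against 6.59, 6.49 and 6.95 FPKM in control libraries (log2 fold change 1.79 ± 0.189 SE, limma adjusted p = 2.61e-05). An antisense gene that shares 11268 bases with its locus, 4930483K19Rik, averaged 0.825 FPKM in nintedanib and 0.0636 FPKM in control libraries.

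All 8 enzymes that turn lanosterol into cholesterol rose, with a median log2 fold change of 1.36. The largest rise was in Nsdhl, a dehydrogenase of the demethylation at C4, which had 48.2, 42.1 and 41.3 FPKM in nintedanib libraries, against 11.7, 9.14 and 12.7 FPKM in control libraries (log2 fold change 1.89 ± 0.164 SE, limma adjusted p = 6.84e-06). Cyp51, lanosterol demethylase, was the most abundant synthesis transcript per length in control cells. It had 146, 129 and 140.2 FPKM in nintedanib libraries, against 47.8, 44.03 and 52.1 FPKM in control libraries (log2 fold change 1.51 ± 0.145 SE, limma adjusted p = 1.33e-05). Msmo1, the C4 methyl oxidase, had 77.02, 66.1 and 92.2 FPKM in nintedanib libraries, against 27.4, 25.5 and 28.4 FPKM in control libraries, and rose by 1.49 on the log2 scale. Hsd17b7, the ketoreductase of the same demethylation, averaged 15.6 ± 3.05 FPKM in nintedanib and 5.13 ± 0.586 FPKM in control libraries (SD, n = 3 each). Tm7sf2, a C14 reductase, was with Fdps the lowest synthesis transcript in control cells, and had 6.34, 5.67 and 5.46 FPKM in nintedanib libraries and 1.65, 1.81 and 1.94 FPKM in control libraries. Its model shares 9356 bases with Vps51 on the same strand, so this level is uncertain. Among the 8 the smallest rises were in Sc5d, the C5 desaturase, at 1.11, Dhcr7, a reductase of the last steps, at 1.18, and Ebp, the sterol isomerase, at 0.70 on the log2 scale (limma adjusted p 4.83e-05, 4.07e-05 and 0.000804 in that order). Ebp had 30.3, 26.2 and 21.1 FPKM in nintedanib libraries and 15.7, 15.9 and 14.5 FPKM in control libraries, and the groups did not overlap.

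In the SREBP2 control system the brake rose, the factor itself rose less, and the escort was not called. Insig1, which holds Scap in the endoplasmic reticulum and is itself a target of SREBP2, had 179, 185 and 197 FPKM in nintedanib libraries, against 57.5, 52.7 and 58.4 FPKM in control libraries. It had the smallest adjusted p of the 27 genes, with a log2 fold change of 1.72 ± 0.104 (SE, limma adjusted p = 7.07e-07). Insig2, its paralogue, had 30.4, 34.2 and 36.5 FPKM in nintedanib libraries, against 19.3, 19.9 and 18.7 FPKM in control libraries (log2 fold change 0.77 ± 0.0848 SE, limma adjusted p = 3.46e-05). Srebf2, the gene of SREBP2, had 92.5, 82.2 and 71.05 FPKM in nintedanib libraries, against 56.3, 51.9 and 56.8 FPKM in control libraries. Its rise of 0.56 ± 0.109 (SE, limma adjusted p = 0.0018) was smaller than that of any of the 18 synthesis genes that rose. Scap, the escort, had 9.93, 9.42 and 8.25 FPKM in nintedanib libraries and 9.55, 10.2 and 10.4 FPKM in control libraries, with overlapping groups and a log2 fold change of -0.12 ± 0.0932 (SE, limma adjusted p = 0.322). RNA levels give no measure of how much SREBP2 protein was cut.

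Outside synthesis and its control, 2 of the 4 tested genes rose. Stard4, a carrier of sterol between membranes, had 33.5, 28.2 and 35.5 FPKM in nintedanib libraries, against 16.3, 13.7 and 15.96 FPKM in control libraries, and its log2 fold change of 1.03 ± 0.133 (SE, limma adjusted p = 0.000106) lay within the range of the synthesis genes. Mylip had 9.44, 14.1 and 13.7 FPKM in nintedanib libraries, against 7.60, 7.58 and 8.11 FPKM in control libraries. The log2 fold change was 0.60 ± 0.184 (SE, limma adjusted p = 0.0222), and it did not stay past the threshold when control replicate 1, control replicate 2, nintedanib replicate 2 or nintedanib replicate 3 was left out (limma adjusted p 0.0574, 0.0586, 0.0835 and 0.0716 in that order). Abca1, which loads cholesterol onto apolipoproteins at the cell surface, was low, with 1.56, 3.16 and 2.96 FPKM in nintedanib libraries and 1.58, 1.24 and 1.64 FPKM in control libraries. Nintedanib replicate 1 lay inside the control range and the other 2 libraries above it, and the log2 fold change was 0.49 ± 0.213 (SE, limma adjusted p = 0.0874). The added 1 FPKM makes this change smaller at these low levels. With voom on the recovered fragments the log2 fold change of Abca1 was 0.79 and past the threshold (limma adjusted p 0.0402). Without nintedanib replicate 1 it was 0.71 with a limma adjusted p of 0.0142, and without combination replicate 3, which enters through the shared spread, the adjusted p was 0.0444. Soat1, which esterifies cholesterol for droplets, had 10.9, 10.4 and 10.6 FPKM in nintedanib libraries, just below 12.4, 11.1 and 12 FPKM in control libraries, and was not called (log2 fold change -0.14 ± 0.0645 SE, limma adjusted p = 0.0959).

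Abcg1, the second efflux pump, stayed under 1 FPKM in every library. It had 0.711, 0.427 and 0.431 FPKM in combination, 0.0552, 0.249 and 0.309 in nintedanib, 0.210, 0.421 and 0.249 in radiation and 0.0296, 0.128 and 0.114 in control libraries. These values rest on 52, 31 and 31 fragments in combination, 4, 18 and 23 in nintedanib, 14, 32 and 18 in radiation, and 2, 9 and 8 in control libraries. Every combination library lay above every library of the nintedanib, radiation and control groups, though 0.427 FPKM in combination was close to 0.421 in radiation. Among the 13012 genes tested, such a separation upward was seen in 10.4% against nintedanib, 23.3% against radiation and 26.7% against control. In the limma fit without a filter, Abcg1 was called in combination against control (adjusted p 0.00787), as were 20.9% of the 30404 genes in that fit. It was not called in combination against nintedanib or against radiation (limma adjusted p 0.156 and 0.198 in that order). Nor was it called in nintedanib or radiation against control (limma adjusted p 0.475 and 0.232 in that order).

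**Figure D2:**
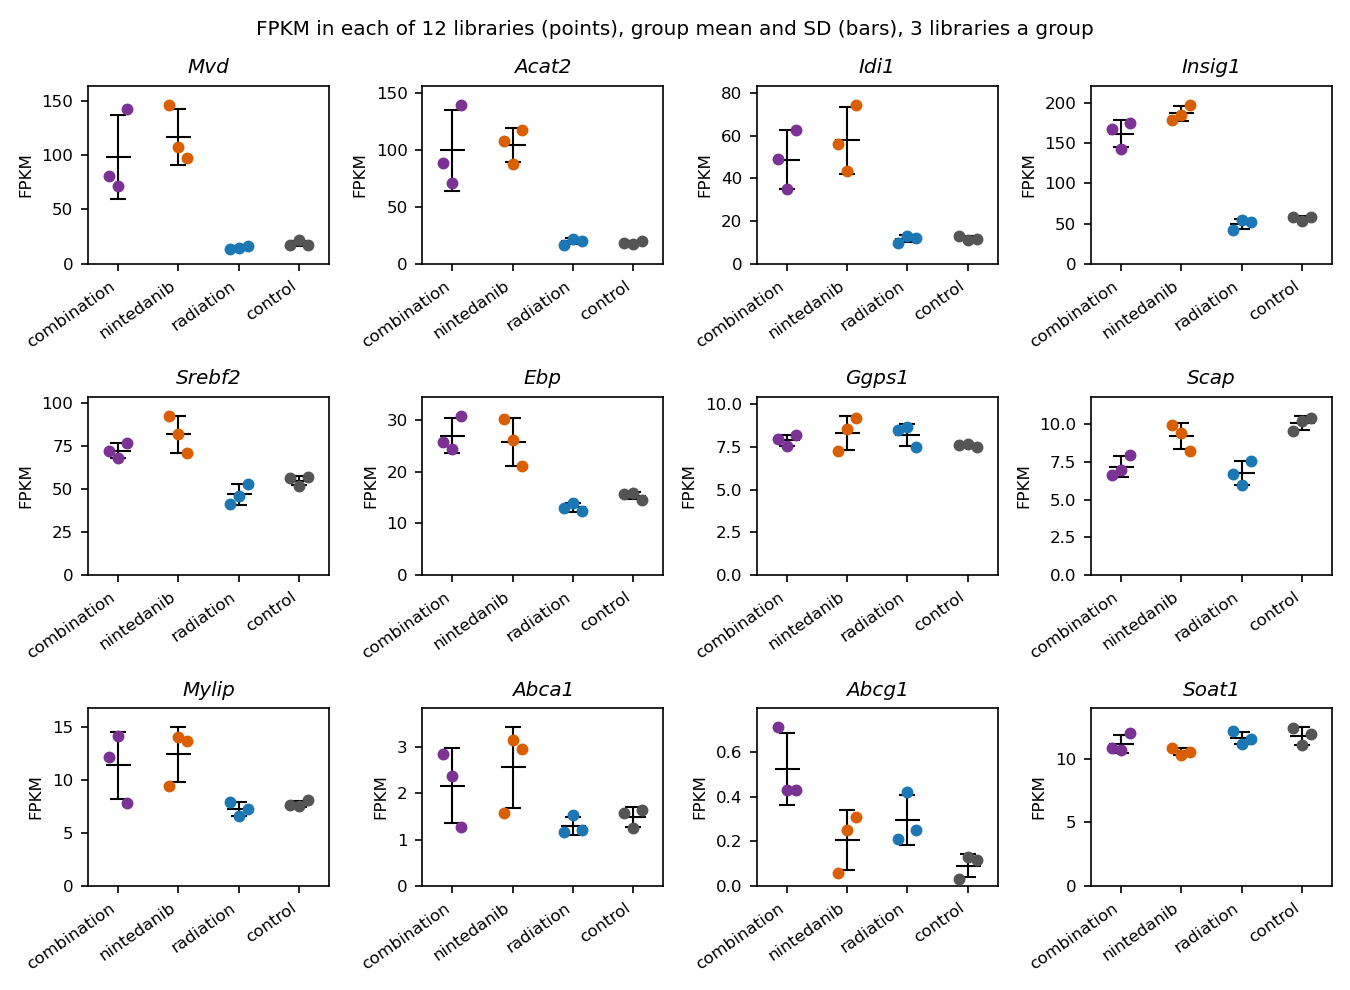
FPKM of 12 of the genes in each library (points), with the group mean and SD (bars, n = 3 each), from combination on the left to control on the right; every axis starts at 0. Mvd, Acat2, Idi1 and Insig1 stand apart in both drug-treated groups, Ggps1 and Soat1 were called in none of the comparisons, Scap is lower in both irradiated groups than in control, and Abcg1 is highest in combination libraries.

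Radiation alone was set against control to see what X-rays did to the same genes. Only Scap was called, and it fell: it had 6.69, 5.98 and 7.57 FPKM in radiation libraries, against 9.55, 10.2 and 10.4 FPKM in control libraries, a log2 fold change of -0.52 ± 0.0932 (SE, limma adjusted p = 0.00418). Of the 27 genes 0 were called higher and 1 lower, where 17.9% of all genes were called, 8.04% higher and 9.9% lower. At an unadjusted p under 0.05 the count was 3 (Sqle, Cyp51 and Scap), beside 32.2% of all genes. The fold changes were negative in 20 of 27 genes, with a median of -0.12, against 7306 of 13012 and -0.04 over all genes. They were negative in 16 of 27 when every library was rescaled to the same FPKM sum and in 17 of 27 with voom. The median of the 27 was then -0.05 and -0.12 in that order, beside 0.06 and 0.02 over all genes. With 1 library left out the median of the 27 ran from -0.18 (without radiation replicate 2, radiation replicate 3 or control replicate 2) to -0.08 (without radiation replicate 1). For 9 genes all radiation libraries lay below all control libraries, which was the case for 24.3% of all genes. Cyp51 had the largest shift after Scap, with 31.4, 41.3 and 36.9 FPKM in radiation libraries and 47.8, 44.03 and 52.1 FPKM in control libraries, and was not called (log2 fold change -0.39 ± 0.145 SE, limma adjusted p = 0.0869). Without combination replicate 2 or without combination replicate 3, libraries that enter only through the shared estimate of spread, it passed the threshold (limma adjusted p 0.0491 and 0.0422 in that order). The count of lower genes was then 2 and 3 in that order, Tm7sf2 being the other gene added without replicate 3. The mevalonate genes shifted in either direction: Acat2 had 16.9, 21.96 and 20.3 FPKM in radiation libraries and Hmgcs1 30.9, 43.02 and 36.9 FPKM, both around their control values, with 95% intervals of the log2 fold change of -0.39 to 0.51 and -0.34 to 0.27.

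In irradiated cells nintedanib raised the same genes. Combination libraries were above radiation libraries for 23 of 27 genes by the limma test, with 0 below, while 34.4% of all genes were called, 17.2% higher and 17.3% lower. The rise was at least 1 on the log2 scale in 17 genes, against 1.57% of all genes. The same 18 of 19 synthesis genes rose, with a median of 1.51. Mvd had 80.8, 71.6 and 142 FPKM in combination libraries, against 13.7, 14.9 and 16.2 FPKM in radiation libraries (log2 fold change 2.57 ± 0.228 SE, limma adjusted p = 1.31e-05). Nsdhl had 40.5, 33.04 and 52.4 FPKM in combination libraries, against 7.67, 10.1 and 7.97 FPKM in radiation libraries (log2 fold change 2.15 ± 0.164 SE, limma adjusted p = 5.09e-06). Insig1 had 168, 142 and 175 FPKM in combination libraries, against 42.5, 54.3 and 52.1 FPKM in radiation libraries (log2 fold change 1.68 ± 0.104 SE, limma adjusted p = 1.40e-06). These groups did not overlap. Ggps1, with 7.98, 7.54 and 8.19 FPKM in combination libraries and 8.51, 8.67 and 7.49 FPKM in radiation libraries, was again not called (log2 fold change -0.05 ± 0.0812 SE, limma adjusted p = 0.679). Abca1, Soat1 and Scap were the others not called, at 0.43, -0.05 and 0.08 on the log2 scale, and without combination replicate 3, the lowest of its group, Abca1 was 0.65 and past the threshold (limma adjusted p 0.0295). Mylip, at 0.56 ± 0.184 (SE, limma adjusted p = 0.0363), had overlapping groups, in that combination replicate 3, at 7.87 FPKM, lay below radiation replicate 1, at 7.92 FPKM. It was not called without any 1 radiation library or without combination replicate 1 or 2 (limma adjusted p 0.0540 to 0.142 over these 5).

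The effect of nintedanib can be set side by side without radiation (nintedanib against control) and with it (combination against radiation), since these comparisons share no library. The 23 genes called higher were the same in both, and 13% of all genes were called higher in both. Across the 27 genes the fold changes had a Pearson r of 0.973, and across all 13012 genes 0.751; genes within 1 set of libraries are not independent, and this is a description. The difference between the effects is the interaction term. Of the 27 genes 0 were called for it by limma, and 0 had an unadjusted p under 0.05, beside 0.00769% (1 gene) and 12.9% of all genes. Its largest size was 0.31 for Cyp51, with a 95% interval of -0.14 to 0.76. The 95% intervals of the 27 differences ran from -0.99 to 0.78 at their widest. With 3 libraries a group, the values of a gene are compatible with any difference inside its own interval.

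**Figure D3:**
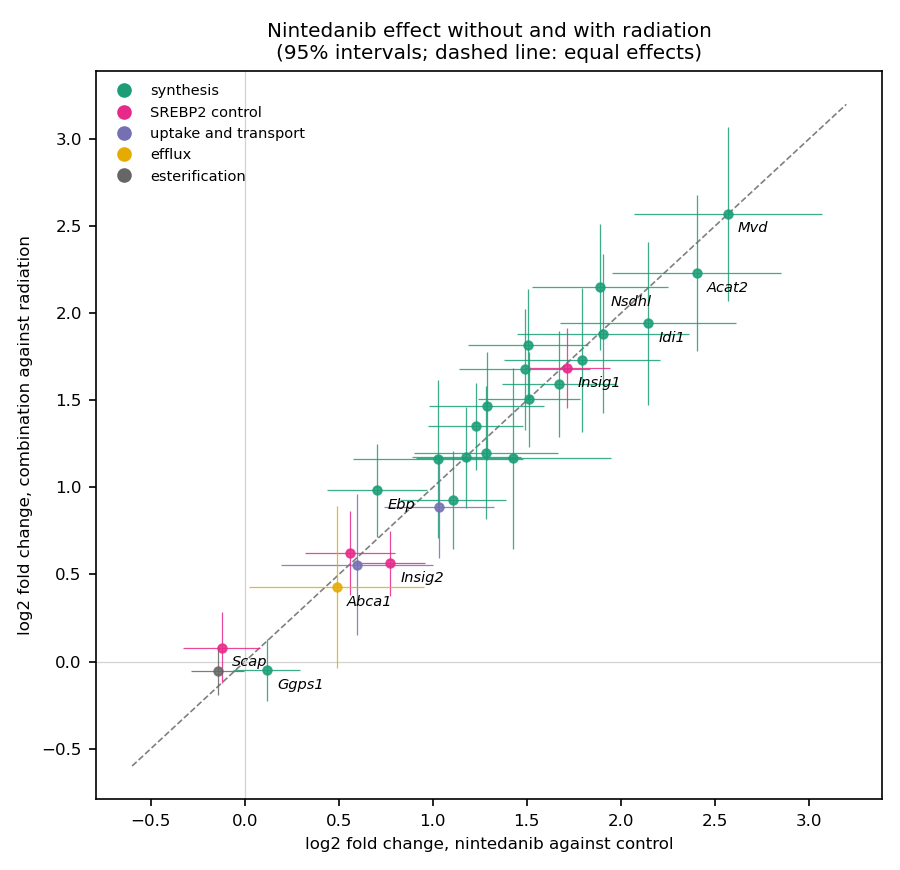
Log2 fold change of FPKM + 1 for 27 genes in nintedanib against control (horizontal) and in combination against radiation (vertical), with 95% intervals from limma and a dashed line where both are equal. The points lie along the line from Scap, Soat1 and Ggps1 near 0 to Mvd at 2.57 in both.

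Against untreated cells the combination gave 22 higher and 1 lower of 27, where 47.2% of all genes were called, 22.3% higher and 25% lower. The lower gene was Scap, with 6.66, 6.94 and 7.95 FPKM in combination libraries, against 9.55, 10.2 and 10.4 FPKM in control libraries (log2 fold change -0.44 ± 0.0932 SE, limma adjusted p = 0.00248). Mylip, at 0.46 ± 0.184 (SE, limma adjusted p = 0.0572), was not called here, and without combination replicate 3 it was 0.69 with a limma adjusted p of 0.00389. It also passed without nintedanib replicate 1 (adjusted p 0.0334). With all libraries, Mylip passed with a filter of 5 FPKM in 3 libraries and with median-of-ratios scaling (limma adjusted p 0.0458 and 0.0485). The same held with voom and with protein-coding genes only (limma adjusted p 0.0233 and 0.0351). Abca1, at 0.31 ± 0.213 (SE, limma adjusted p = 0.253), passed without combination replicate 3 (0.54, adjusted p 0.0462). The synthesis genes again gave 18 of 19 higher, with a median of 1.32.

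Adding radiation to the drug did not move any of the genes past the threshold. In combination against nintedanib 0 of 27 were called by limma, where 5.55% of all genes were called, 3.17% higher and 2.37% lower, and 1 had an unadjusted p under 0.05, beside 22% of all genes. This was Scap, with 6.66, 6.94 and 7.95 FPKM in combination libraries, all below the 9.93, 9.42 and 8.25 FPKM of nintedanib libraries (log2 fold change -0.32 ± 0.0932 SE, limma adjusted p = 0.0754). Insig1 was the other gene whose groups did not overlap, with 168, 142 and 175 FPKM in combination libraries, below the 179, 185 and 197 FPKM of nintedanib libraries (log2 fold change -0.21 ± 0.104 SE, limma adjusted p = 0.258). Such a separation downward was seen in 11.8% of all genes. The fold changes were negative in 24 of 27 genes, with a median of -0.14, against 6824 of 13012 and -0.01 over all genes. Without combination replicate 2 they were negative in 15 of 27 with a median of -0.03. The median was -0.27 without combination replicate 3, -0.09 without nintedanib replicate 1 and -0.08 without nintedanib replicate 3. For Mvd the 95% interval was -0.80 to 0.20 and for Lss, which had the largest shift, -0.77 to 0.06. The values of either are thus compatible with no difference and with a moderate fall.

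Within the combination group the synthesis genes had nearly the same highest and lowest libraries. Combination replicate 3 was the highest of its group for 19 of 19 synthesis genes and combination replicate 2 the lowest for 18. The other groups had such an order in fewer of the genes. Nintedanib replicate 1 was the highest for 13 and nintedanib replicate 2 the lowest for 11. Radiation replicate 2 was the highest for 13 and radiation replicate 1 the lowest for 13. Control replicate 3 was the highest for 9 and control replicate 2 the lowest for 12. Summed over the 19 genes, FPKM was 860.4, 721.9 and 1161 in the 3 combination libraries, against 1078, 884.3 and 1027 in nintedanib libraries. It was 247.5, 298.3 and 274.5 in radiation libraries and 308.6, 302.9 and 319.5 in control libraries. The spread among combination libraries was thus larger than the distance between the combination and nintedanib means, 914.5 ± 225 and 996.4 ± 100.5 FPKM (SD, n = 3 each). The 19 genes took 0.383% of fragments in combination, 0.418% in nintedanib, 0.119% in radiation and 0.131% in control libraries on average. Median-of-ratios scaling factors of the 3 combination libraries were 0.993 to 1.001. Mylip and Abca1 ran the other way, with their lowest combination value in replicate 3. Their lowest nintedanib value was in replicate 1, at 9.44 and 1.56 FPKM in that order. The source of these differences between replicates was not tested.

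**Figure D4:**
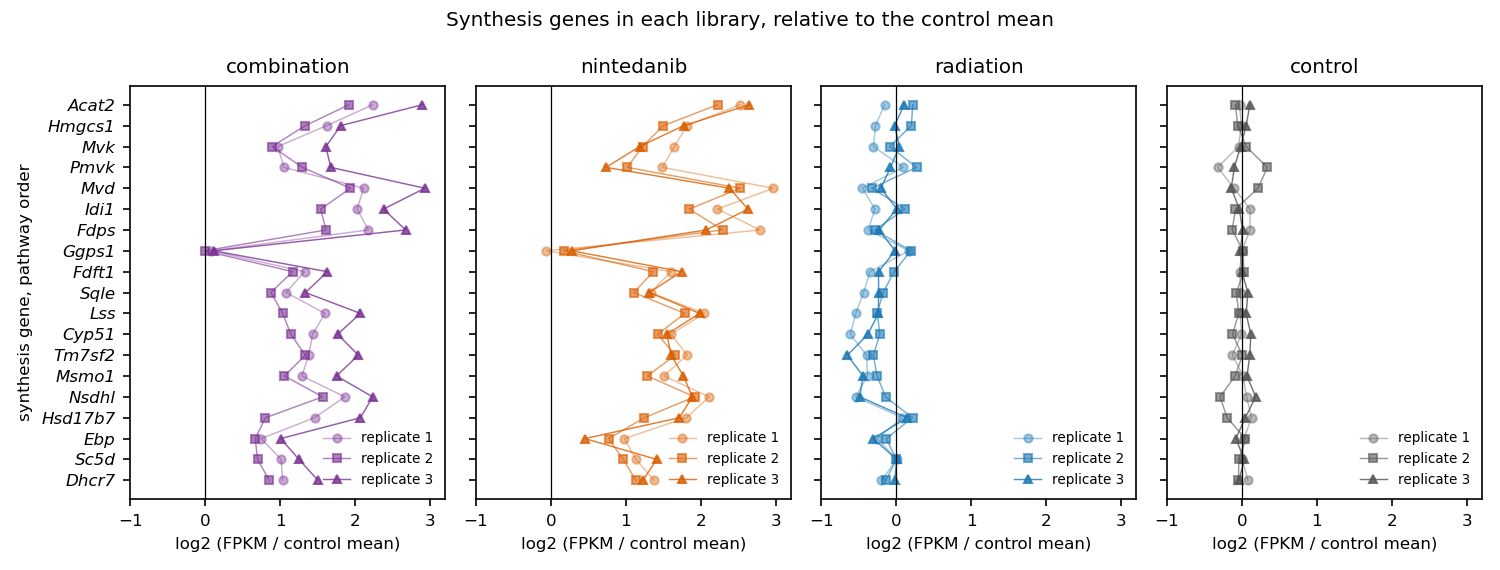
Log2 ratio of FPKM to the control mean (horizontal) for the 19 synthesis genes in pathway order (vertical), 1 panel a group and 1 line a library. Both drug-treated groups lie to the right of 0 except at Ggps1, and in combination the line of replicate 3 is the rightmost for every gene.

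Genes around the pathway were read from 6 further lists, beside the 19.7% of all genes called higher and the 22% called lower in nintedanib against control. Of the enzymes that supply acetyl-CoA 4 of 6 were higher and 1 lower with nintedanib. Acss2, which makes acetyl-CoA from acetate, had 10.4, 11.5 and 12.4 FPKM in nintedanib libraries, against 2.68, 2.61 and 2.78 FPKM in control libraries (log2 fold change 1.75 ± 0.0955 SE, limma adjusted p = 3.81e-07). It was also 1 of the 2 genes of this list that were lower in combination than in nintedanib libraries, as were 2.37% of all genes, with 7.05, 5.93 and 7.94 FPKM in combination libraries (log2 fold change -0.64 ± 0.0955 SE, limma adjusted p = 0.00402). Acly, which makes acetyl-CoA from citrate, rose by 0.99, and Slc25a1, the mitochondrial citrate carrier, by 1.08 on the log2 scale (limma adjusted p 6.77e-05 and 0.000129 in that order). Acat1, the mitochondrial thiolase, had 34.6, 34.4 and 40.01 FPKM in nintedanib libraries, 17.1, 18.1 and 18.3 FPKM in radiation libraries and 24.6, 27.8 and 24.1 FPKM in control libraries, so it rose with the drug and fell with X-rays (log2 fold changes 0.49 and -0.49, limma adjusted p 0.00038 and 0.0021).

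Of the SREBP processing genes 5 of 14 were higher and 5 lower in nintedanib than in control libraries, where 19.7% of all genes were higher and 22% lower. Rnf145, a ubiquitin ligase that acts on Scap, had 22.5, 23.7 and 22.8 FPKM in nintedanib libraries, against 8.09, 7.88 and 9.30 FPKM in control libraries (log2 fold change 1.35 ± 0.0786 SE, limma adjusted p = 5.44e-07). Erlin1, a membrane protein that restrains SREBP activation, fell to 16.3, 16.1 and 16.1 FPKM in nintedanib libraries, against 32.6, 31.4 and 32.4 FPKM in control libraries (log2 fold change -0.95 ± 0.0847 SE, limma adjusted p = 7.94e-06). Sec24d and Sec23a, coat proteins of the vesicles that leave the endoplasmic reticulum, rose by 0.55 and 0.53 on the log2 scale, while Mbtps2, the second protease that cuts SREBP, fell by 0.36 with nintedanib and by 0.42 with radiation (limma adjusted p 0.0156 and 0.0199 in that order). Srebf1, which encodes SREBP1, had 48.9, 51.6 and 48.2 FPKM in nintedanib libraries, against 37.02, 34.3 and 37.2 FPKM in control libraries (log2 fold change 0.44 ± 0.114 SE, limma adjusted p = 0.00895).

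Among lipoprotein receptors 2 of the 7 tested rose and 1 fell with nintedanib, and among genes of sterol transport inside the cell 4 of 15 rose and 3 fell. Both counts are near the shares over all genes, 19.7% higher and 22% lower. Scarb1, the receptor for high-density lipoprotein, had 15.3, 12.5 and 12.01 FPKM in nintedanib libraries, against 8.02, 8.28 and 8.07 FPKM in control libraries (log2 fold change 0.64 ± 0.0869 SE, limma adjusted p = 0.000156). Vldlr fell to 7.70, 9.39 and 10.1 FPKM in nintedanib libraries, against 22.6, 20.9 and 22.9 FPKM in control libraries (log2 fold change -1.21 ± 0.116 SE, limma adjusted p = 1.36e-05). Among the transport genes, Lipa, the lysosomal lipase that frees cholesterol from lipoprotein esters, had 33.1, 39.6 and 42.7 FPKM in nintedanib libraries, against 14.4, 14.9 and 15.5 FPKM in control libraries (log2 fold change 1.30 ± 0.0969 SE, limma adjusted p = 2.31e-06). Osbpl2, an oxysterol-binding protein, fell to 17.4, 18.5 and 17.8 FPKM in nintedanib libraries, against 37.1, 41.6 and 36.9 FPKM in control libraries (log2 fold change -1.06 ± 0.0794 SE, limma adjusted p = 2.33e-06). Stard5 and Gramd1b, carriers of sterol like Stard4, also fell, Stard5 to 2.72, 2.68 and 2.57 FPKM in nintedanib libraries, against 6.56, 6.56 and 5.92 FPKM in control libraries (limma adjusted p 6.43e-06), and Gramd1b by 0.75 on the log2 scale (limma adjusted p 3.31e-05).

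The LXR and oxysterol list gave 3 of 9 tested genes higher and 3 lower with nintedanib (19.7% and 22% of all genes), and 7 of its 16 genes were too low to test, Ch25h at 0 in all libraries. Lpcat3, a phospholipid enzyme that LXR controls, rose by 0.93 on the log2 scale, with 9.82, 12.4 and 10.6 FPKM in nintedanib libraries and 5.05, 5.15 and 5.58 FPKM in control libraries (limma adjusted p 6.91e-06). Soat2, the second sterol esterification enzyme, had the largest fall in the 6 lists, with 0.786, 1.22 and 0.420 FPKM in nintedanib libraries, against 6.40, 6.95 and 4.81 FPKM in control libraries (log2 fold change -1.97 ± 0.159 SE, limma adjusted p = 4.10e-06). It fell in irradiated cells too, to 1.06, 1.22 and 1.15 FPKM in combination libraries, against 8.26, 6.79 and 6.80 FPKM in radiation libraries (log2 fold change -1.95 ± 0.159 SE, limma adjusted p = 7.50e-06). Nr1h2, which encodes LXR beta, fell with radiation, to 16.6, 15.4 and 16.3 FPKM, against 20.7, 23.3 and 22.8 FPKM in control libraries (log2 fold change -0.44 ± 0.0808 SE, limma adjusted p = 0.00461). In the list of isoprenoid branches, mostly genes of protein prenylation, dolichol and ubiquinone, 0 of 17 rose with nintedanib and 5 fell. Of all genes 19.7% rose and 22% fell. Among the 5 that fell, Rabggtb, a subunit of the enzyme that puts geranylgeranyl groups on Rab proteins, had 32.6, 29.04 and 35.6 FPKM in nintedanib libraries, against 47.5, 51.7 and 50.3 FPKM in control libraries (log2 fold change -0.61 ± 0.0842 SE, limma adjusted p = 0.000176). The list's median log2 fold change was -0.10, beside -0.02 over all genes.

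**Figure D5:**
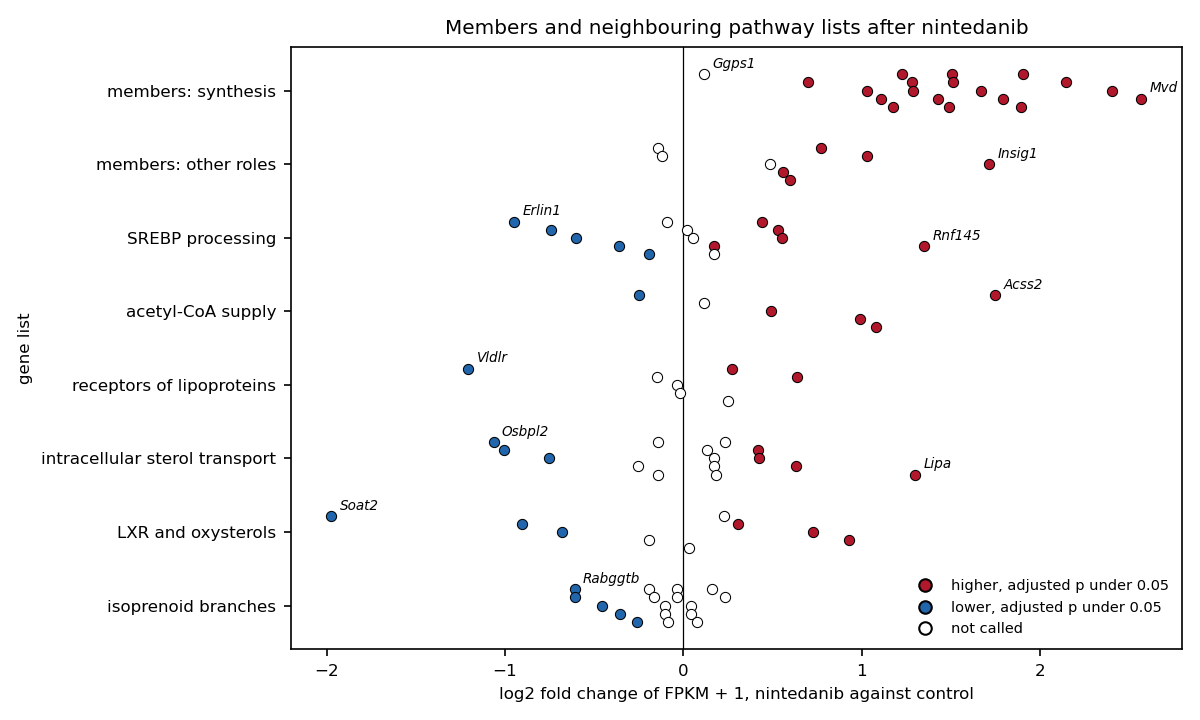
Log2 fold change of FPKM + 1 in nintedanib against control (horizontal) for the synthesis genes, the other members and 6 further lists (rows), with each tested gene a point, red where called higher, blue where called lower and white where not called. Of the synthesis genes 18 of 19 points are red, while the 6 further lists hold both red and blue points, other than the isoprenoid branches, which hold 5 blue and no red ones.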

How the data were processed

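The authors deposited 1 table of FPKM values for 54532 genes in 12 libraries, with gene identifiers, coordinates and model lengths, per the file headers. The submitters' processing notes name GRCm38 (mm10) as the build. The aligner, counter, annotation and use of strand: not given in the sources used here. Groups and replicate numbers came from the sample titles. Of the 28 genes, all were in GENCODE M21 and 26 had the same coordinates there. In every library 100% of values were whole multiples of 1 fragment within a tolerance of 0.01, which gave the fragment counts; these cover counting error only. Promoter windows and motif letters came from RefSeq (GRCm38.p6).

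The 13012 genes that reached 1 FPKM in 3 or more libraries entered limma 3.58.1 (R 4.3.3, moderated by empirical Bayes with a trend on intensity, two-sided) as log2(FPKM + 1), all 12 libraries in 1 fit with 8 residual degrees of freedom. Benjamini-Hochberg adjustment ran over all genes within a comparison, with a threshold of 0.05, and a second count asked for a log2 change of 1 or more in size. The fit was tested on simulated data in which genes varied independently, which does not test calls on genes that move together. The genes, their roles and the 6 further lists were chosen with earlier results of these data known. All 28 genes could be named, and from each further list up to 6 genes with the smallest adjusted p in nintedanib against control or in the comparison described. Same-numbered libraries did not deviate together, so the fit has no replicate block. The alternatives tried were another pseudocount, filters, scalings, gene sets and sample sets, voom, the block, and each library left out.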

Additional observations from a re-analysis of the deposited data

How the results depend on the processing

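Over 162 results of single genes and up to 21 alternative settings each, 0 reversed. Of the 70 called ones, 68 kept their call in every setting; the exceptions were Mylip in nintedanib against control and in combination against radiation, whose largest adjusted p over the settings were 0.0835 and 0.142. Of the 92 not called, 10 were called in at least 1 setting. The number of the genes called in radiation against control was 1, and it was 4 when only the 2 groups compared entered the fit and 1 to 3 when 1 library was left out; the cause was not tested. Leaving out 1 library gave 22 to 25 in nintedanib against control, 23 to 25 in combination against control and 22 to 24 in combination against radiation, beside 23 in each as reported. In combination against nintedanib it was 0, and 1 (Scap) with FPKM rescaled to a common sum and 1 (Scap) with voom on the recovered fragments. With the replicate number as a block it was 23 in nintedanib, 1 in radiation and 23 in combination against control, 22 in combination against radiation (Mylip not called, adjusted p 0.0565) and 0 in combination against nintedanib and in the interaction. The numbers did not pair the samples: the deviations of 18 same-numbered pairs correlated at -0.30 to 0.20, 3 of 18 were over 0.1, and 3 of 12 libraries correlated best with their own number.

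Over all genes, rescaling to a common FPKM sum gave 3050 higher and 2034 lower calls in nintedanib against control, beside 2559 and 2860 as reported. In radiation against control it gave 1332 and 578, and voom 1443 and 966, beside 1046 and 1288. Rescaling moved the median gene of the interaction to -0.10, beside 0.01 as reported. Calls over all genes in radiation against control numbered 2334, and 1145 to 1523 without control replicate 2 or 3 or radiation replicate 1 or 2. In combination against nintedanib they numbered 722, and 43 with only those 2 groups, 444 with the block, and 269 to 453 without nintedanib replicate 2 or 3 or combination replicate 2 or 3. Low genes are limited by depth: Abcg1 rested on 2 to 52 fragments a library. All effects are from 1 cell line, 1 dose and 1 time.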
